A study of Mus musculus with 6 samples.

Results

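The 10 genes described here, Hspa5, Hsp90b1, Dnajb9, Herpud1, Xbp1, Atf4, Atf3, Ddit3, Trib3 and Asns, belong to the unfolded protein response. They were taken by name from the probes of a mouse expression array, with all probes of each gene. This gave 10 of the 26120 genes with a kept probe and 19 of the 40552 kept probes, and no member was lost to the filter on dim probes. The arrays held 3 irradiated and 3 control cultures, 1 array each. All 6 were dissociated cerebral cortex from C57/B6 embryos at day 16, plated at high density in Neurobasal medium with B27 plus and collected at 12 days in vitro (DIV). Irradiated cultures received terahertz radiation at 3.1 THz for 3 h once a day from 5 to 9 DIV. Controls are labelled only as control cultures, and a sham exposure is not stated. The labels number the cultures 1 to 3 in each group without saying whether these came from separate dissections, so the p-values reflect only how far these samples scatter, part of which may be technical. RNA came from whole cultures, in which fewer cells of a type and less RNA per cell cannot be told apart.

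The unfolded protein response is the set of signals by which a cell adjusts to misfolded protein in the endoplasmic reticulum (ER). Its 3 sensors in the ER membrane are PERK, IRE1 and ATF6. PERK lowers general translation and favours that of Atf4 mRNA, IRE1 splices Xbp1 mRNA, and ATF6 is cut to release a transcription factor, after which genes for chaperones, protein degradation and amino acid supply are switched on. In neurons some of these genes also respond to amino acid shortage and oxidative stress through ATF4.

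The transcription factors of the response act through short DNA elements, and 5 of these were searched on both strands of the RefSeq promoters (build GRCm38.p6, 250 bases before to 50 bases after the gene's start), in which all 10 members were found. The ER stress element (CCAAT, 9 free bases, CCACG), bound by ATF6 together with NF-Y, was present in 0.119% of 32851 promoters, and among the members in Hspa5 and, in both orientations, in Hsp90b1. The second ER stress element (ATTGG, 1 free base, CCACG) was present in 0.0365% of promoters and in Herpud1. The ATF4 element TGATGNAA was present in 3.97% of promoters and in Asns, Herpud1, Atf3 and Trib3, where the Trib3 match began at base 15 of the transcript. The XBP1 core TGACGTGG (0.676% of promoters) and the cyclic AMP element TGACGTCA (1.79%), which begin with the same letters, were in none of the 10 windows. The ER stress elements share the letters CCACG with each other, but no 2 matches in the members overlapped. The upstream matches are printed below with 6 bases on each side, 5′ to 3′ on the strand of the gene, to show which members share an element. Capitals mark the element, or its reverse complement where the name says reverse.
Hspa5, 65 bases upstream, chr2:34772019-34772049: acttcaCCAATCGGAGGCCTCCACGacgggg
Hsp90b1, 212 bases upstream, chr10:86705632-86705662: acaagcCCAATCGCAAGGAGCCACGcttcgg
Hsp90b1, nearer the start, reverse, chr10:86705527-86705557: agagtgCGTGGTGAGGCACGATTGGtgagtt
Herpud1, 52 bases upstream, chr8:94386371-94386393: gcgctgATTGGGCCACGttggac
Herpud1, 112 bases upstream, reverse, chr8:94386311-94386330: ggcgggTTGCATCAgcccgc
Atf3, 110 bases upstream, reverse, chr1:191183430-191183449: tcgcacTTGCATCAccaagt
Asns, 23 bases upstream, chr6:7693219-7693238: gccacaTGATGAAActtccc
A match is a match of letters, and binding was not measured here.

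The 75th percentile of the processed signal lay between 635 and 892 on the irradiated arrays and between 320 and 707 on the control arrays. The share of spots well above background was 64.9% to 74.7%, and no spot was saturated. Control 1 was the lowest array on both, at 320 and 64.9%. Control 1 stood apart on the first principal component (54.5% of the variation), at -114 against -3.89 to 47.5 for the other 5 arrays. The summed signal of 6 astrocyte markers, in multiples of the array's 75th percentile, was 155 to 322 on irradiated arrays and 158 to 455 on control arrays, and that of 7 microglial markers was 13.8 to 29.0 on irradiated arrays and 11.2 to 29.9 on control arrays. Both sums were highest on the array numbered 1 of each group. The 7 neuronal markers, all of them measured, summed to 216 to 280 on irradiated arrays and 253 to 313 on control arrays. The 6 oligodendrocyte markers summed to 39.3 to 126 on irradiated arrays and 35.7 to 142 on control arrays. The part of these cell types in the results was not tested.

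Setting irradiated against control cultures addresses whether the exposure changed gene expression. None of the 10 members passed the test, and the 95% interval of each included 0. The transcription factor gene Ddit3 was 1.16-fold of control (95% interval 0.833 to 1.61) and the chaperone gene Hspa5 1.02-fold (0.519 to 1.99). By limma, 0 of 10 members had an adjusted p under 0.05, against 0% of all genes, and the smallest adjusted p was 0.596 among the members and 0.519 over all probes. At an unadjusted p under 0.05 the count was 0 of 10 members, against 8.85% of all 26120 genes (2.39% higher and 6.46% lower in irradiated cultures). For none of the 10 did the irradiated arrays all lie on one side of the control arrays, against 16% of all genes (3.85% above and 12.2% below). Differences below are irradiated minus control on the log2 scale, where a level is the log2 signal minus that of the array's 75th percentile. Each gene is described first by its brightest probe, with positions on mouse build mm9.

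**Figure D1:**
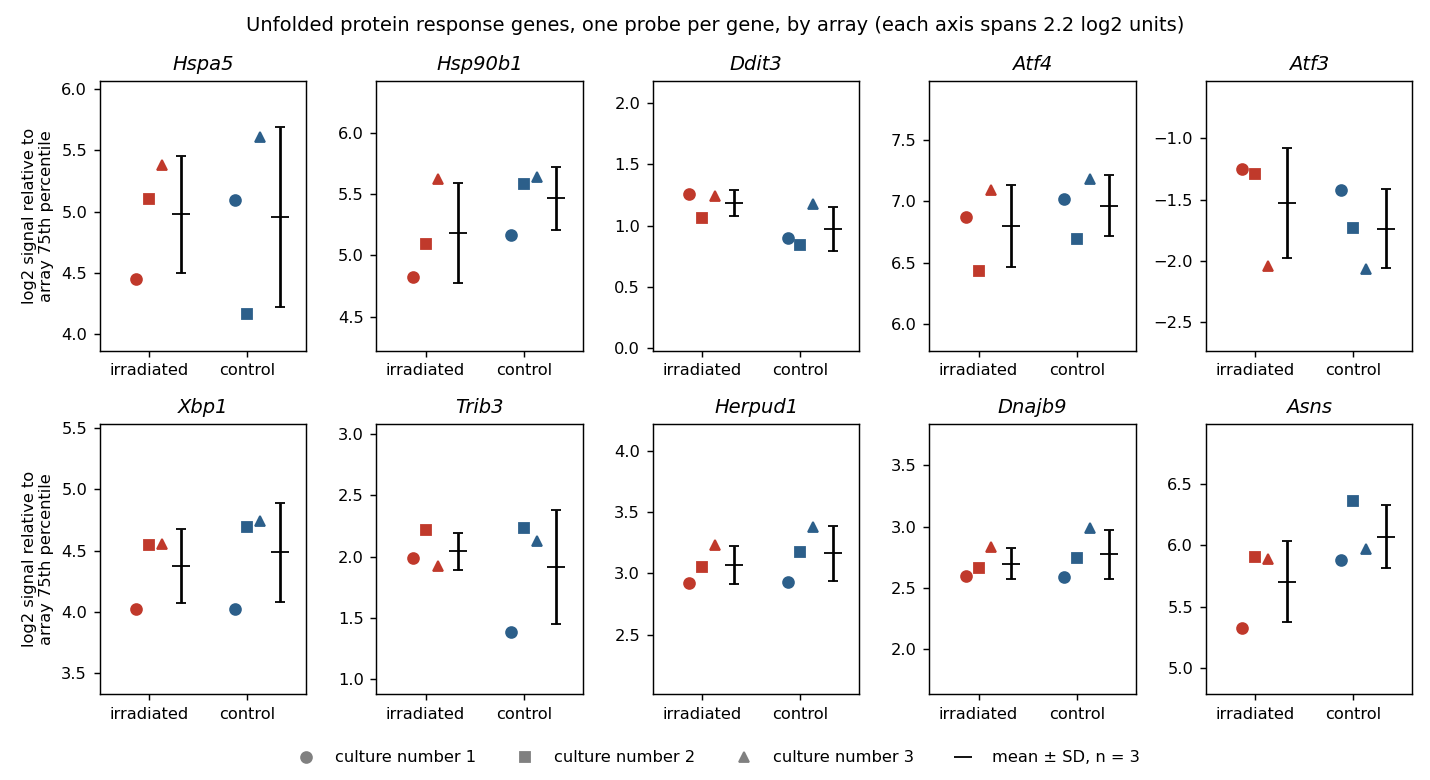
Level, as log2 signal minus the 75th percentile of its array (y axis), of the brightest probe of each gene on the 3 irradiated arrays (red, left) and the 3 control arrays (blue, right). Symbols give the culture number and black marks the mean ± SD (n = 3). The points of the 2 groups overlap in all 10 panels, with the widest scatter in Hspa5, between 4.16 and 5.61.

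Hspa5 encodes BiP, the main Hsp70 chaperone of the ER, which also holds the stress sensors inactive. Its brightest probe (chr2:34631913-34631972) read 4.45, 5.11 and 5.38 on irradiated arrays 1 to 3 and 5.09, 4.16 and 5.61 on control arrays 1 to 3. The lowest and the highest of the 6 values were both controls, and the irradiated values lay between them. The means were 4.98 ± 0.48 in irradiated and 4.95 ± 0.73 in control cultures (SD, n = 3 each), a difference of 0.02 (95% interval -0.95 to 0.99, limma adjusted p = 0.989). Same-numbered cultures went opposite ways, with irradiated minus control at -0.64, 0.95 and -0.23 for the numbers 1, 2 and 3. The difference turned to -0.37 without control 2, to -0.04 without irradiated 2 and to -0.18 without irradiated 3. The other Hspa5 probes were less scattered: the probe at chr2:34631136-34631195 differed by -0.07 (-0.58 to 0.44), and the probe at chr2:34630699-34631075, whose span is wider than its 60 bases, by 0.11 (-0.43 to 0.65). The intervals of all 3 probes included 0, and that of the brightest was the widest.

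Hsp90b1 encodes GRP94, the Hsp90 chaperone of the ER lumen, and carries the same ER stress element as Hspa5. Its only probe (chr10:86153693-86153752) read 4.83, 5.09 and 5.63 in irradiated cultures 1 to 3 and 5.17, 5.58 and 5.64 in control cultures 1 to 3. Irradiated 3 lay within the control values, while irradiated 1 and 2 lay below all of them. The means were 5.18 ± 0.41 in irradiated and 5.47 ± 0.26 in control cultures, 0.821-fold (0.526 to 1.28), with limma adjusted p = 0.708. Each irradiated culture read lower than the control of its number, with differences of -0.34, -0.49 and -0.02.

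Dnajb9 encodes ERdj4, an Hsp40 co-chaperone of BiP and a target of XBP1. The brightest probe (chr12:45307071-45307129) read 2.60, 2.66 and 2.84 in irradiated and 2.59, 2.75 and 2.99 in control cultures, in the order of their numbers. The groups interleaved almost fully. The difference was -0.08 (-0.56 to 0.41, limma adjusted p = 0.920). The second Dnajb9 probe (chr12:45308272-45308331) differed by -0.06 (-0.56 to 0.44).

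Herpud1, whose product is an ER membrane protein of ER-associated degradation, carries both an ER stress element and an ATF4 element. Its brightest probe (chr8:96919117-96919176) read 2.93, 3.05 and 3.23 in irradiated cultures and 2.93, 3.18 and 3.38 in control cultures. All 6 values lay close together and the groups overlapped. The difference was -0.09 (-0.60 to 0.42), or 0.938-fold (0.660 to 1.33), with limma adjusted p = 0.903.

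Xbp1 encodes the transcription factor that IRE1 activates by splicing its mRNA, and it drives chaperone and degradation genes. Spliced and unspliced forms were not told apart here. The brightest probe (chr11:5425816-5425875) read 4.02, 4.55 and 4.55 in irradiated and 4.02, 4.70 and 4.75 in control cultures 1 to 3. Culture number 1 was low in both groups, and the groups overlapped. The difference of -0.11 (-0.77 to 0.55) had a limma adjusted p of 0.908.

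Atf4 encodes the transcription factor at the centre of the integrated stress response, which is controlled largely at translation. Its brightest probe (chr15:80087902-80087961) read 6.87, 6.43 and 7.09 in irradiated and 7.02, 6.69 and 7.18 in control cultures. Both groups were lowest in culture 2 and highest in culture 3. Each irradiated culture read below the control of its number, with differences of -0.15, -0.26 and -0.09, while the group difference of -0.17 (-0.76 to 0.43, limma adjusted p = 0.835) was within the spread between cultures.

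Atf3 encodes a transcription factor that is induced by ATF4 and by many kinds of stress. Its only probe (chr1:192994547-192994606) read -1.25, -1.29 and -2.04 in irradiated and -1.42, -1.73 and -2.06 in control cultures. Culture 3 was lowest in both groups, and the other irradiated cultures lay above every control. The means of -1.53 ± 0.45 in irradiated and -1.74 ± 0.32 in control cultures gave a difference of 0.21 (-0.48 to 0.91, limma adjusted p = 0.815).

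Ddit3 encodes CHOP, a transcription factor that ATF4 induces and that promotes cell death under lasting ER stress. The brightest probe (chr10:126732518-126732821, spanning more than its 60 bases) read 1.26, 1.06 and 1.24 in irradiated and 0.90, 0.85 and 1.18 in control cultures. Irradiated 1 and 3 lay above all controls, and irradiated 2 lay below control 3. The means were 1.19 ± 0.11 in irradiated and 0.97 ± 0.18 in control cultures, and the difference of 0.21 (-0.26 to 0.69, limma adjusted p = 0.705) had the smallest standard error among the brightest probes, 0.20. The second Ddit3 probe (chr10:126731579-126731638) read -1.83, -1.65 and -0.86 in irradiated and -1.56, -0.97 and -1.05 in control cultures. It went the other way, with a difference of -0.25 (-0.99 to 0.48), so that the mean of both probes gave -0.02.

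Trib3 encodes a pseudokinase that ATF4 and CHOP induce and that dampens ATF4 and Akt signalling. Its only probe (chr2:152163161-152163220) read 1.99, 2.21 and 1.92 in irradiated and 1.38, 2.24 and 2.13 in control cultures. Control 1 was the lowest of the 6, and the other 5 values lay close together. The difference was 0.13 (-0.52 to 0.77, limma adjusted p = 0.892), and it turned to -0.14 without control 1.

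Asns encodes asparagine synthetase, an ATF4 target that makes asparagine from aspartate and glutamine. Its brightest probe (chr6:7625171-7625228) read 5.32, 5.91 and 5.89 in irradiated and 5.88, 6.37 and 5.97 in control cultures. Irradiated 1 was the lowest and control 2 the highest of the 6, and irradiated 2 and 3 lay just above control 1. The means were 5.71 ± 0.33 in irradiated and 6.07 ± 0.26 in control cultures, 0.776-fold (0.513 to 1.17), with limma adjusted p = 0.596. After quantile normalisation the difference shrank to -0.03.

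**Figure D2:**
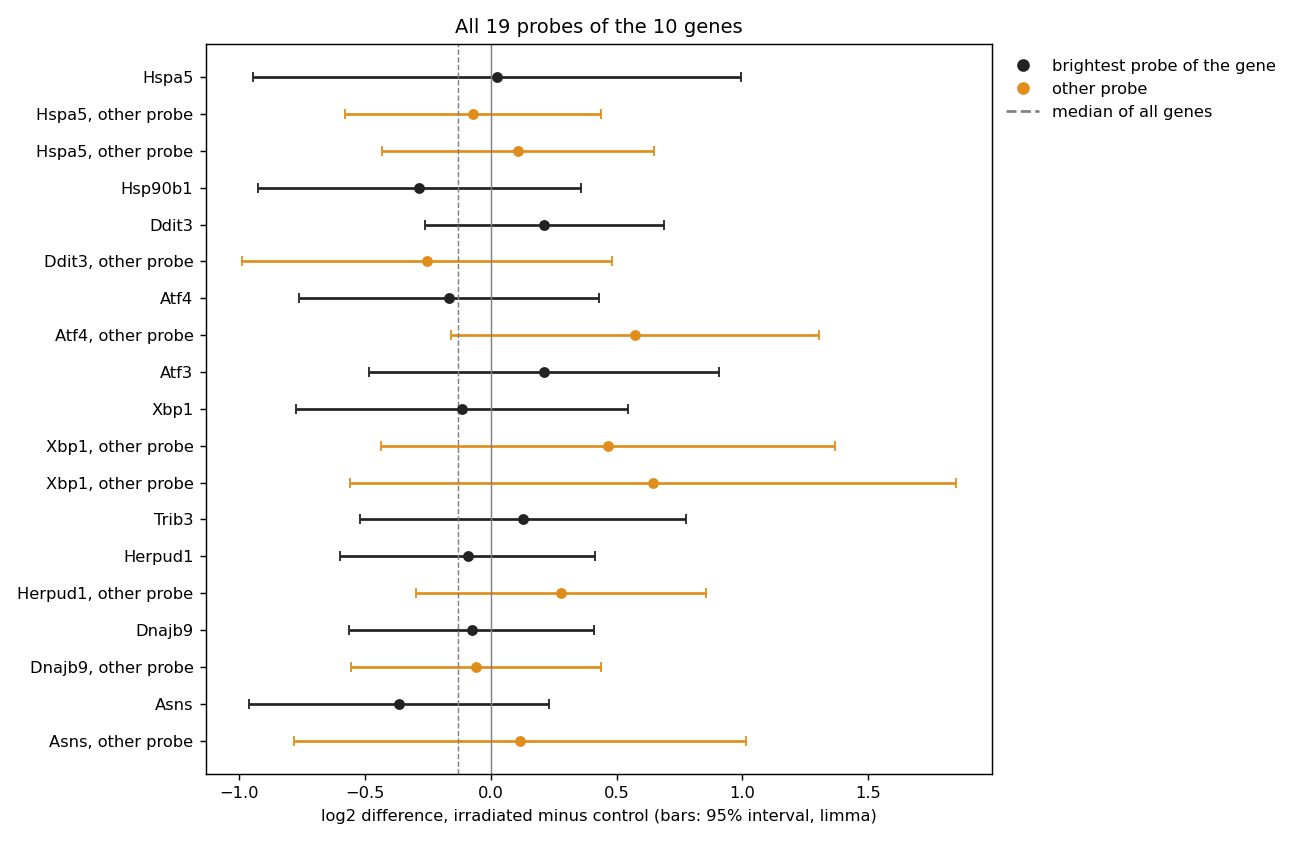
Log2 difference, irradiated minus control (x axis), of all 19 probes, with the brightest probe of each gene in black, other probes in orange, and bars for limma's 95% interval. All 19 intervals include 0 (unadjusted p under 0.05 for 0 of 19, against 9.03% of all probes), and the dashed line is the median of all genes by brightest probe at -0.13.

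Over all kept probes the median difference was -0.05, and over the members' 19 probes it was 0.02. Across the 10 genes, the differences by brightest probe ranged from -0.37 (Asns) to 0.21 (Ddit3), with a median of -0.08, against -0.13 over all 26120 genes. They lay below 0 for 6 of 10 members, against 65.9% of all genes, and after quantile normalisation for 2 of 10 (Hsp90b1 and Asns), against 56.7%. The standard errors of the members were 0.20 to 0.41, against a median of 0.27 over all genes, with Hspa5 the highest of the members. By the elements in their promoters, the ER stress element genes Hspa5, Hsp90b1 and Herpud1 differed by 0.02, -0.28 and -0.09. The ATF4 element genes Atf3, Trib3, Herpud1 and Asns differed by 0.21, 0.13, -0.09 and -0.37, on both sides of 0.

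For 7 of 10 members, same-numbered cultures differed one way throughout, with all 3 irradiated cultures on the same side of the control of their number, against 35.2% of all genes. Of these, Ddit3 and Atf3 were higher in irradiated cultures (8.72% of all genes), and Hsp90b1, Atf4, Xbp1, Herpud1 and Asns were lower (26.5% of all genes). After quantile normalisation the group differences of Atf4, Xbp1 and Herpud1 were 0.24, 0.10 and 0.06, so the direction of these 3 rests on the scaling. The steps were uneven: for the numbers 1, 2 and 3 they were 0.36, 0.22 and 0.06 for Ddit3, and -0.56, -0.46 and -0.08 for Asns. For Atf3 they were 0.17, 0.44 and 0.02. Some steps were close to 0: -0.0012 for Xbp1 and -0.0052 for Herpud1 at number 1, and -0.018 for Hsp90b1 at number 3. The labels do not state that same-numbered cultures are pairs.

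In 7 of the members more than 1 probe was present, and in each of these the brightest probe was the one nearest the 3′ end of the gene. For 4 of the genes, Atf4, Xbp1, Herpud1 and Asns, every probe farther from that end had a difference above 0 and the 3′ probe one below 0. How many of all genes show this pattern of signs was not counted. Among 6535 genes with comparable probes, the 3′ probe was lower relative to the farthest probe in irradiated cultures for 63.2%. The sequences of the 5 inner probes of these 4 members are given, 5′ to 3′ on the strand of the gene (mm9), to show the stretches of mRNA they read. The opposite signs rest on the scaling in 3 of the 4 genes. After quantile normalisation the 3′ probes of Atf4, Xbp1 and Herpud1 were at 0.24, 0.10 and 0.06. Their inner probes were then at 0.68 (Atf4), 0.50 and 0.64 (Xbp1) and 0.26 (Herpud1). Only Asns kept opposite signs, with -0.03 at the 3′ probe and 0.21 at the inner probe. Before quantile normalisation the inner Asns probe was above control only for number 1 (0.47), with -0.10 and -0.02 for numbers 2 and 3.
Atf4, chr15:80087079-80087138, plus strand: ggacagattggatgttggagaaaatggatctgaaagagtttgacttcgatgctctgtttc
Xbp1, chr11:5424970-5425029, plus strand: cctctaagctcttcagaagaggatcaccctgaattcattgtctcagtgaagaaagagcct
Xbp1, chr11:5424869-5424928, plus strand: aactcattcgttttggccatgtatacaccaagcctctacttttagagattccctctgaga
Herpud1, chr8:96918575-96918634, plus strand: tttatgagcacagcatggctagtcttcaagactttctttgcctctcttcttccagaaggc
Asns, chr6:7626110-7626255, minus strand: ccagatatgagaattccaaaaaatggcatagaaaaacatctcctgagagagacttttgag
The Asns probe spans more of the genome than its own length.

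The inner Atf4 probe read 2.49, 2.19 and 2.17 in irradiated and 1.26, 1.52 and 2.35 in control cultures 1 to 3. Irradiated 1 was the highest, controls 1 and 2 were the lowest, and control 3 lay among the irradiated values. The difference was 0.57 (-0.16 to 1.30, limma adjusted p = 0.528), on the other side of 0 from the 3′ probe of Atf4.

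The inner Xbp1 probe at chr11:5424970-5425029 read 0.36, 1.18 and 0.68 in irradiated and -0.51, 0.62 and 0.71 in control cultures. The one at chr11:5424869-5424928 read 0.06, 0.99 and 0.25 in irradiated and -1.39, 0.27 and 0.48 in control cultures. On both probes control 1 was by far the lowest reading, and the remaining values overlapped. Their differences were 0.47 (-0.44 to 1.37, limma adjusted p = 0.656) and 0.65 (-0.56 to 1.85, adjusted p = 0.644).

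The inner Herpud1 probe read -0.46, -0.05 and -0.53 in irradiated and -0.93, -0.60 and -0.35 in control cultures, a difference of 0.28 (-0.30 to 0.86, limma adjusted p = 0.679). The inner Asns probe read 1.73, 2.46 and 2.32 in irradiated and 1.26, 2.56 and 2.34 in control cultures, a difference of 0.12 (-0.78 to 1.02, adjusted p = 0.938). In each gene the groups overlapped and control 1 was the lowest of the 6.

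The gap between the probe nearest the 3′ end and the farthest probe, as a log2 difference centred on its mean over the 6 arrays, shows this per array. For Xbp1, with probes 947 bases apart, it was -0.36, -0.76 and -0.02 on irradiated arrays 1 to 3 and 1.09, 0.11 and -0.06 on control arrays 1 to 3. For Atf4, 823 bases apart, it was -0.50, -0.64 and 0.04 on irradiated arrays and 0.88, 0.29 and -0.06 on control arrays. For Asns, 939 bases apart, it was -0.18, -0.33 and -0.21 on irradiated arrays and 0.85, 0.03 and -0.15 on control arrays. The gap was thus widest on control 1 in these genes, and the arrays numbered 3 hardly differed.

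The gap was smaller in irradiated cultures for 6 of the 7 members, with Ddit3 the exception at 0.47, and for 63.2% of 6535 genes with probes that could be compared in the same way. The median gap over those genes was -0.13, -0.13 and 0.05 on irradiated arrays 1 to 3 and 0.13, 0.03 and 0.05 on control arrays 1 to 3. It was highest on control 1 for 4 of the 7 members and for 40.6% of the genes. Control 1 was also the array with the lowest 75th percentile of signal (320) and the smallest share of spots well above background (64.9%). RNA length was not measured, and the part of array quality or RNA length in the gap was not tested.

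**Figure D3:**
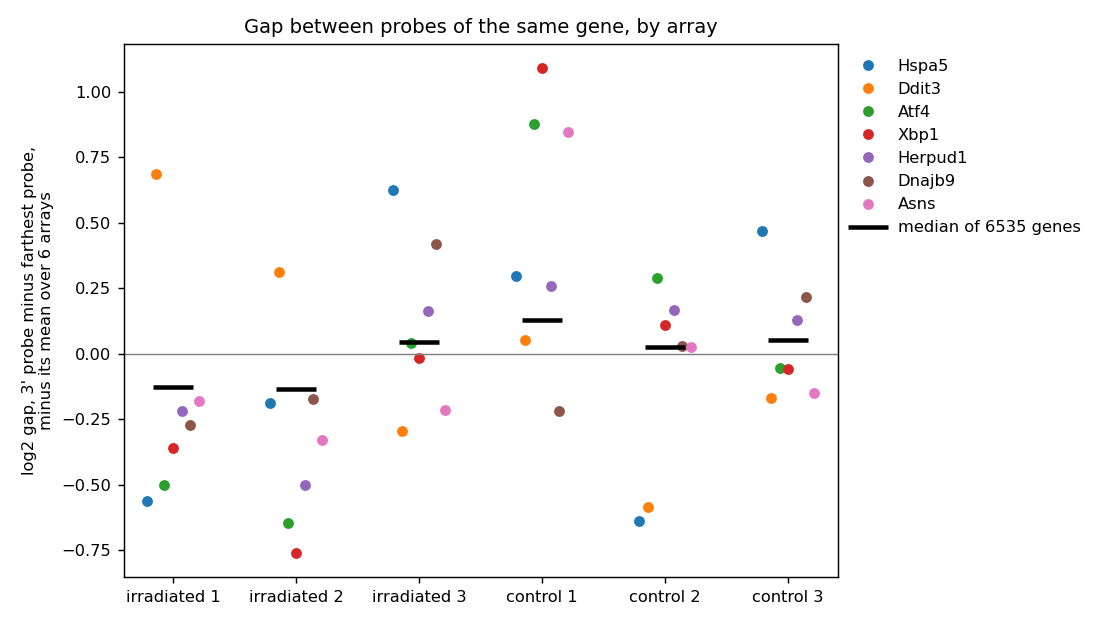
Log2 gap between the probe nearest the 3′ end and the farthest probe of the same gene, minus its mean over the 6 arrays (y axis), for the 7 members with more than 1 probe, on the 3 irradiated and 3 control arrays (x axis). Black bars are the median of 6535 genes. Xbp1, Atf4 and Asns stand highest on control 1, at 1.09, 0.88 and 0.85.

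The likeness of the members' profiles over the 6 arrays varied. As its measure, each gene's log2 profile was centred on its own mean, and the root mean square difference between profiles was taken over the 6 arrays. The nearest pair of members was Herpud1 and Dnajb9 at 0.034, followed by Xbp1 and Herpud1 at 0.17, and the farthest was Hspa5 and Atf3 at 0.73. The other comparisons were made with Hspa5, the member with the widest scatter. Among 15293 other named genes measured on every array, the nearest to Hspa5 were Drp2 (0.15), Slc25a26 (0.15), Spats2 (0.17) and Golga5 (0.17). The nearest member was Atf4 at 0.44, with 7.62% of those genes nearer, and the farthest was Atf3 at 0.73, with 81.2% nearer. Hsp90b1, which carries the same promoter element, stood at 0.49 with 23.3% of genes nearer. The measure takes in the size of the scatter as well as its shape, so nearness alone does not show a shared pattern. The reference was the brightest Hspa5 probe, whose values spanned 1.45, against 0.38 and 0.54 on the other Hspa5 probes. These are descriptions over 6 arrays that share a slide.

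The wider pathway was read from 6 lists of 101 other genes, and a list of 10 immediate early genes was set beside them. All 111 were measured. None had a limma adjusted p under 0.05, and none had an unadjusted p under 0.05, against 8.85% of all genes. Of the 101 pathway genes, 76 had differences below 0 (75.2%, against 65.9% of all genes), and after quantile normalisation 54 did (53.5%, against 56.7%). The groups did not overlap for 21 of the 101, which is 20.8% against 16% of all genes. Of the 101, 20 were lower in irradiated cultures, against 12.2% of all genes. The remaining 1, P4hb, was higher, against 3.85% of all genes. The median difference of the 101 was -0.15, and -0.0077 after quantile normalisation. The 3 genes of each list with the smallest unadjusted p are named below. Their adjusted p-values in limma were 0.519 to 0.615, so none passed.

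**Figure D4:**
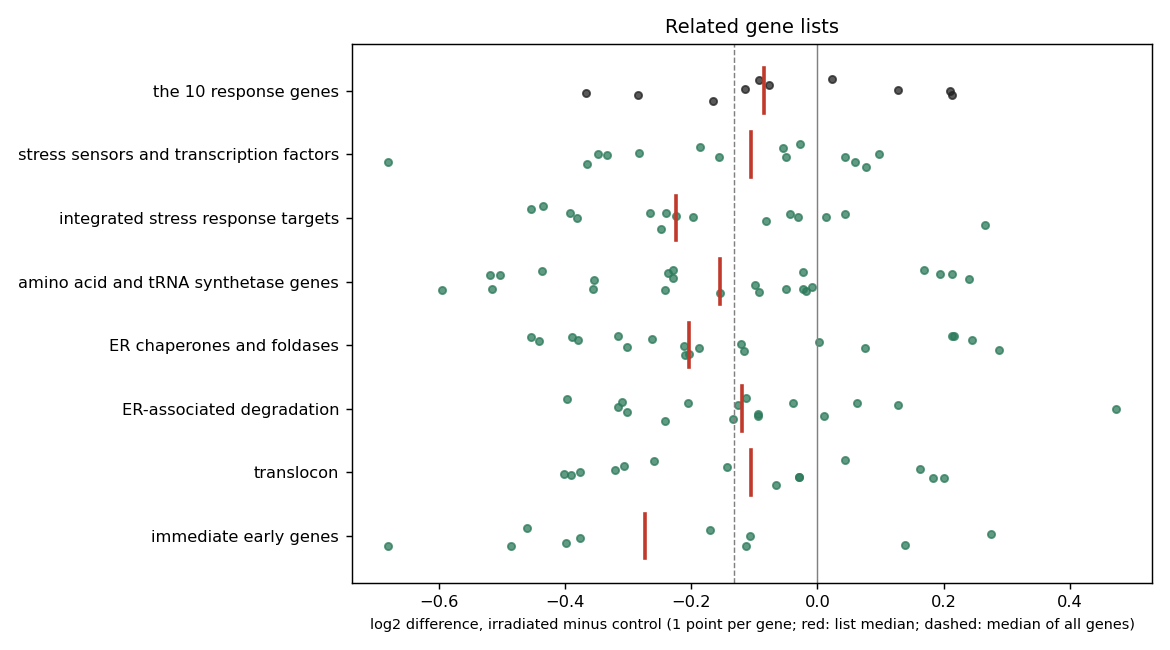
Log2 difference, irradiated minus control (x axis), of each gene in the 10 response genes and 7 related lists, 1 point per gene, with list medians in red. The dashed line is the median of all genes at -0.13, and the list medians lie between -0.27 and -0.08.

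Of 14 genes for stress sensors and transcription factors, 10 lay below 0, with a median of -0.11 before and after quantile normalisation. With 1 array left out this median ranged from -0.20 (without irradiated 1) to -0.08 (without irradiated 2), and with the mean of a gene's probes it was -0.04. Creb3l1, an ER-bound transcription factor, differed by -0.68 ± 0.35 (SE). Nfe2l1, an ER-bound regulator of proteasome genes, differed by -0.37 ± 0.22, and Eif2s1, the translation factor subunit that PERK phosphorylates, by -0.35 ± 0.21. For Nfe2l1 and Eif2s1 all irradiated arrays read below all control arrays, and for Creb3l1 the groups overlapped. The 2 Nfe2l1 probes differed by -0.37 and -0.00059.

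Of 15 targets of the integrated stress response, 12 lay below 0, with a median of -0.22 (-0.07 after quantile normalisation). It was -0.07 without control 1 and -0.31 without control 3. Ppp1r15a, whose product GADD34 reverses the translation block, differed by -0.45 ± 0.28 (SE). Chac1, a glutathione-degrading enzyme induced by ATF4, differed by -0.43 ± 0.32. Atf5, a related transcription factor, read 6.14, 6.17 and 6.15 in irradiated cultures and 6.59, 6.81 and 6.21 in control cultures, below every control, and its difference of -0.38 turned to 0.03 after quantile normalisation.

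Amino acid and tRNA synthetase genes, many of them ATF4 targets like Asns, lay below 0 for 19 of 23, with a median of -0.15 (0.02 after quantile normalisation). It was -0.27 without irradiated 3 and -0.08 with the mean of a gene's probes. Aldh18a1, an enzyme of proline synthesis, differed by -0.59 ± 0.32 (SE). The alanyl-tRNA synthetase gene Aars differed by -0.52 ± 0.25 and the seryl-tRNA synthetase gene Sars by -0.50 ± 0.29. For Aars the irradiated arrays all read below the controls, with irradiated 2 at 4.426 just under control 3 at 4.430. Its 3 probes differed by -0.64 to 0.72, on both sides of 0.

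ER chaperones and foldases, the class of Hspa5, Hsp90b1 and Dnajb9, lay below 0 for 13 of 19, with a median of -0.20 (-0.07 after quantile normalisation). With the mean of a gene's probes it was -0.02. Hyou1, an Hsp70-like exchange factor of BiP, differed by -0.45 ± 0.22 (SE) on its brightest probe with no overlap between groups, and its 3 probes ranged from -0.45 to 0.35. Even the brightest was dim, with mean levels of -2.40 in irradiated and -1.95 in control cultures. Ppib, an ER prolyl isomerase, differed by -0.44 ± 0.24, and Calr, the lectin chaperone calreticulin, by -0.38 ± 0.24. P4hb, protein disulfide isomerase, read 2.15, 2.38 and 2.10 in irradiated and 1.96, 1.96 and 2.07 in control cultures, above every control, with a difference of 0.22 and a limma adjusted p of 0.685. It was named for being the exception and was chosen after its values were seen.

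Genes of ER-associated degradation, the pathway of Herpud1, lay below 0 for 12 of 16, with a median of -0.12, against -0.0026 after quantile normalisation. It was 0.03 with the mean of a gene's probes, -0.21 without control 1 and -0.06 without irradiated 1. Os9, a lectin that recognises misfolded glycoproteins, differed by -0.40 ± 0.22 (SE). Vcp, the ATPase that pulls substrates out of the membrane, differed by -0.32 ± 0.19 with no overlap, and its 4 probes ranged from -0.49 to 0.86. Edem2, a mannosidase of the pathway, differed by 0.47 ± 0.29, with overlapping groups. Its probe was dim, with mean levels of -3.01 in irradiated and -3.48 in control cultures, against 4.01 and 4.40 for Os9.

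Translocon genes, for the channel through which proteins enter the ER, lay below 0 for 10 of 14, with a median of -0.10 (0.07 after quantile normalisation). It was -0.03 with the mean of a gene's probes and -0.20 without control 1. Spcs2 of the signal peptidase differed by -0.40 ± 0.22 (SE), Ssr4 of the translocon-associated complex by -0.39 ± 0.21, and Sec61g, a channel subunit, by -0.38 ± 0.21. For all 3 genes the irradiated arrays read below the controls, and none passed the adjusted test. These 3 were picked by their small p-values, which favours separated groups. In the whole list the irradiated arrays read below the controls for 5 of 14 genes, against 12.2% of all genes.

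Immediate early genes, which respond to neuronal activity and to stress, lay below 0 for 8 of 10, with a median of -0.27 (-0.13 after quantile normalisation). Junb differed by -0.49 ± 0.28 (SE), Ier2 by -0.46 ± 0.30 and Jun by -0.40 ± 0.24, all genes of rapid transcriptional responses. The 2 Junb probes differed by -0.49 and 0.11, on both sides of 0. For Jun the irradiated arrays read below the controls, with irradiated 3 at 3.90 just under control 3 at 3.91. The list's median was -0.64 without irradiated 1, 0.13 without irradiated 2, 0.23 without control 1 and -0.43 without control 2. It was -0.18 with the mean of a gene's probes.

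Under the other processing choices run, no member passed an adjusted or an unadjusted p of 0.05 in limma. The direction of Hsp90b1, Atf3 and Asns was the same in all of them, and that of the other 7 members changed in at least 1. Some of these choices, such as the filter on dim probes, left every member's difference unchanged.

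**Figure D5:**
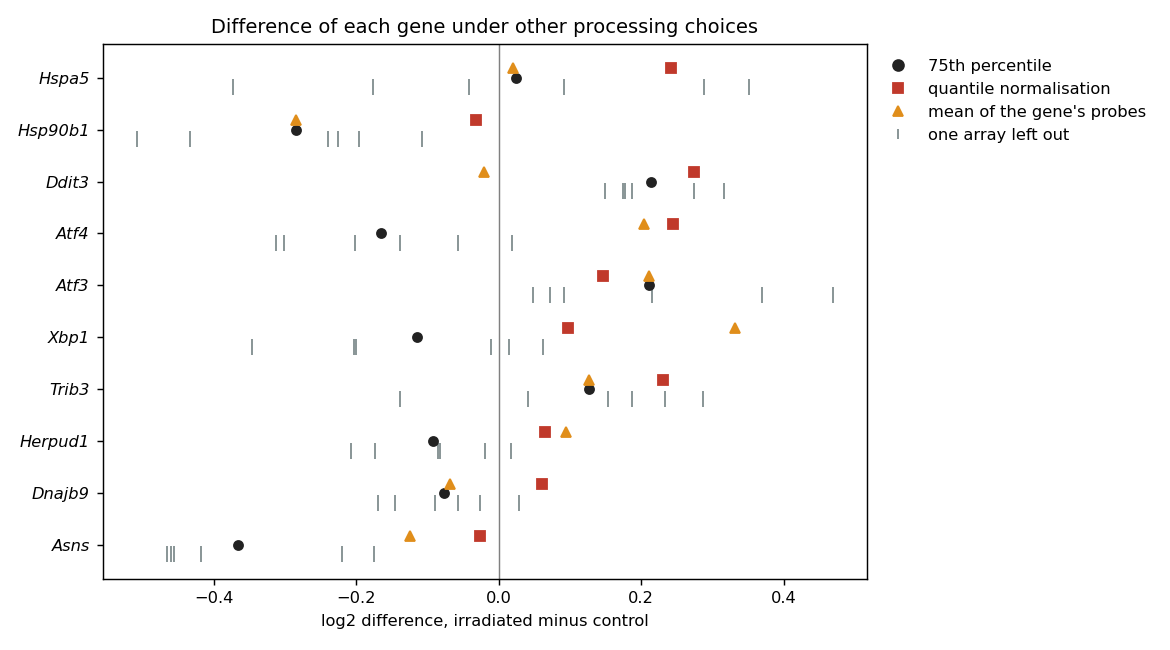
Log2 difference, irradiated minus control (x axis), of each member under the 75th percentile scaling (black), quantile normalisation (red squares), the mean of a gene's probes (orange triangles) and with 1 array left out (grey ticks). Hsp90b1, Atf3 and Asns keep their side of 0 under each of these, while the other 7 members cross it at least once.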

How the data were processed

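The deposited scanner files hold 1-colour spot intensity values from the software Agilent Feature Extraction (version 10.7.1.1), as the submitters' processing notes and, per the file headers, the files state. The processed signal, per the file headers, is corrected for background and for spatial trends, and probe positions are on mm9. The multiplicative trend fit was 0 on control 1 and 0.013 to 0.038 elsewhere. Whether control 1 received that correction was not examined. The authors also deposited a log2 table, whose medians were 5.91 on all arrays and which ranked probes as the scanner signal did (Spearman correlation 0.997 on control 1, 1 after rounding on the others). It looks quantile normalised, runs in the same direction and is not centred per gene, with its tool not given in the sources used here.

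Processed signals were taken to log2, outlier spots were left out and spots of a probe were averaged. Of 56605 probes, 10 were lost because some array held only outlier spots for them. The 75th percentile over the remaining 56595 probes was subtracted per array. Probes well above background on at least 3 of 6 arrays were kept (40552). Naming through RefSeq matched 32994 probes by accession, 10224 by symbol and 520 by synonym, and 12867 kept the file's name. The brightest probe stood for a gene. Irradiated and control arrays were compared over all kept probes with limma 3.58.1 in R 4.3.3 (lmFit, eBayes), with Benjamini-Hochberg adjustment and calls at 0.05. The fit was tested on simulated data. The number of arrays limits the precision.

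The members and lists were chosen with earlier results of these data known. All members were described. From each other list the 3 genes with the smallest unadjusted p were named, and the 5 genes most like Hspa5 by centred profile, of which 1 is not reported here. Promoter sequences are from RefSeq, GRCm38.p6. Exon annotation on mm9 was not used.

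Same-numbered arrays deviated together from their group means (correlations 0.53, 0.42 and 0.22 for the numbers 1, 2 and 3), so the numbers were taken to pair the samples. The pairing comes from the data, not from the labels, and irradiated 2 with control 3 (0.33) and irradiated 3 with control 2 (0.17) also correlated. The arrays shared 1 slide and 1 scan, so neither could be tested as a batch. Alternatives were the replicate block, quantile normalisation, both together, normexp background correction (offset 50), the deposited table, other filters, the mean of a gene's probes and leaving out each array. The 75th percentile over all spots or over probes above background, and leaving out both arrays numbered 1, were added after seeing the data.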

Additional observations from a re-analysis of the deposited data

How the results depend on the processing

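No member passed an adjusted or an unadjusted p of 0.05 in limma under any of the settings run. The numbers of the cultures were used as a replicate block, and the pairing changed no call of a member: with the block, 0 of 10 members passed, and their smallest adjusted p was 0.495. Of 170 values of the members under other settings, 144 kept their direction and 26 changed it, among 7 members. These counts are no measure of robustness, as the block alone and the other filters left every member's difference unchanged. The mean of a gene's probes likewise could not move Hsp90b1, Atf3 or Trib3, which have 1 probe. The deposited table and the block with quantile normalisation nearly repeated quantile normalisation alone. Hsp90b1, Atf3 and Asns did not change direction in any, but with 1 array left out they ranged from -0.51 to -0.11, 0.049 to 0.47 and -0.47 to -0.18, and with quantile normalisation Hsp90b1 was -0.032 and Asns -0.026.

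Quantile normalisation, with and without the block, gave Atf4 0.24, Xbp1 0.10, Herpud1 0.065 and Dnajb9 0.061, and the deposited table gave Atf4 0.25, Xbp1 0.10, Herpud1 0.065 and Dnajb9 0.061. The mean of a gene's probes gave Ddit3 -0.021, Atf4 0.20, Xbp1 0.33 and Herpud1 0.094. Without both arrays numbered 1, Trib3 was -0.11. With 1 array left out, Hspa5 ranged from -0.37 to 0.35, Xbp1 from -0.35 to 0.062, Trib3 from -0.14 to 0.29, Atf4 from -0.31 to 0.018, Herpud1 from -0.21 to 0.017 and Dnajb9 from -0.17 to 0.029. Hspa5 was -0.37 without control 2, -0.041 without irradiated 2 and -0.18 without irradiated 3. Xbp1 was 0.014 without control 3 and 0.062 without irradiated 1. Trib3 was -0.14 without control 1, Herpud1 0.017 and Dnajb9 0.029 without control 3, and Atf4 0.018 without irradiated 2. The causes were not tested.

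The members' median was 0.12 with quantile normalisation, with or without the block, and with the deposited table, 0.057 with the mean of a gene's probes, and -0.18 to 0.023 with 1 array left out. The median of all genes was -0.05 with quantile normalisation, with or without the block, and with the deposited table, and -0.22 with normexp.

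Over all probes, 0 passed the adjusted threshold, and 4 did with quantile normalisation and 4 with the deposited table, but 0 with quantile normalisation and the block together (smallest adjusted p 0.508). The 3660 probes at unadjusted p under 0.05 became 6852 with normexp, 5710 without a filter and 1523 without both arrays numbered 1. The mean of a gene's probes gave 2402 genes, against 2312 by brightest probe. Leaving out 1 array gave 1242 (without irradiated 1) to 6370 (without control 3), with 1257 without irradiated 2 and 2274 without control 1. Of the 111 other listed genes, 0 passed at unadjusted p under 0.05, against 1 with normexp, with quantile normalisation (with or without the block) or with the deposited table, and 0 to 6 with 1 array left out (6 without control 3, 5 without irradiated 3 and 1 without control 1). With 3 arrays a group, the 95% intervals of the members' brightest probes reached 0.23 (Asns) to 0.99 (Hspa5) above control on the log2 scale. Those of their other probes reached up to 1.85 (Xbp1). Rises within these intervals were not excluded, and their upper ends are not the smallest rises that could have been detected.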
